A study of Mus musculus with 48 samples.

Results

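Plasma cells were compared with naive B cells from the spleens of mice that carry a c-Rel transgene. The comparison used the 8 transgenic mice (numbers 5 to 8 and 13 to 16), each of which gave 1 library of either population, so that 16 of the 48 libraries of the series entered it, 8 against 8 and paired by mouse. All mice had been immunised intraperitoneally with sheep red blood cells, which elicit germinal centers (GC). The transgenic genotype is written c-RelTG in the labels; the 8 control mice (1 to 4 and 9 to 12) lack the transgene, and transgenic and control mice share 1 further allele that is not reported here. The sources used here name neither the promoter of the transgene nor the age of the mice. Naive B cells were pre-separated magnetically as IgD+ CD43+ and sorted as IgD high, IgM low; plasma cells were pre-separated by CD138 and sorted as CD138+ with low B220. GC B cells, used for 1 comparison at the end, were sorted as B220+ IgD- CD38 low, CD95 high, GL7+. A library held 1000 sorted cells. Transcripts were counted as unique molecular identifiers (UMIs, 1 per captured molecule) by bulk SCRB-seq, which reads messenger RNA near its 3′ end. The naive B cell gate selects high IgD and low IgM protein. The plasma cell gate selects CD138, the product of Sdc1, and low B220, a form of the Ptprc product. Both genes describe the sort and are no finding.

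Plasma cells are the antibody-secreting end stage of the B lineage. In background terms, Blimp-1 (Prdm1), IRF4 and XBP1 direct their formation, and Blimp-1 represses the B cell program held in place by PAX5, BACH2 and their partners. XBP1, with ATF6, enlarges the endoplasmic reticulum (ER) and its folding, quality control and export machinery through the unfolded protein response, so that the cell can fold and secrete immunoglobulin. c-Rel belongs to the NF-kB family, acts in B cells after antigen or CD40 signals and is known for its part in GC maintenance.

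The promoters of ER genes are shown first because XBP1 and ATF6 act through short sequences there. The ER stress response element (CCAAT, 9 bases of any kind, then CCACG) was searched on both strands of RefSeq promoter windows (build GRCm38.p6, 250 bases before to 50 after a start). It was present in 39 of 32851 windows (0.119%). Of the 3738 genes tested below, 2791 had a window, and 9 of these held the element. Those 9, named after their values were seen, are Hspa5, Hsp90b1, Creld2, Derl3, Dnajc3, Pdia6, Calr, Syvn1 and Canx. The bases before the start are printed for 4 of them, of which Hsp90b1 holds 2 copies, with the elements in capitals. A match on the opposite strand reads CGTGG, 9 bases, ATTGG.
Hspa5 (chr2:34771840-34772089, +): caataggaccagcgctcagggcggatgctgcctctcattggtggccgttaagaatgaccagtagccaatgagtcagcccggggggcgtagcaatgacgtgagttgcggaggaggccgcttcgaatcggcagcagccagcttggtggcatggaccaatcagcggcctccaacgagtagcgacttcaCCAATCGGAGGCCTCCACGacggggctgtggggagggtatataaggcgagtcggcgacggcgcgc
Hsp90b1 (chr10:86705445-86705694, -): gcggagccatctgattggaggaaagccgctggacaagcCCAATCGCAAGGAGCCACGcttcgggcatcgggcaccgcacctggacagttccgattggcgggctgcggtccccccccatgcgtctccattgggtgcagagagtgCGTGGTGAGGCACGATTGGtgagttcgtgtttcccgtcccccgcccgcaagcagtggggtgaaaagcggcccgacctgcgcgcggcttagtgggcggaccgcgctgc
Creld2 (chr15:88819396-88819645, +): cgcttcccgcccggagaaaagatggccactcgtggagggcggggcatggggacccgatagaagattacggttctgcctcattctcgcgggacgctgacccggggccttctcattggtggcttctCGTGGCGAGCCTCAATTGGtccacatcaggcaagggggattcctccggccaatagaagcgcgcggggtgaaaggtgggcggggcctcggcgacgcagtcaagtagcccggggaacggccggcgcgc
Derl3 (chr10:75893148-75893397, +): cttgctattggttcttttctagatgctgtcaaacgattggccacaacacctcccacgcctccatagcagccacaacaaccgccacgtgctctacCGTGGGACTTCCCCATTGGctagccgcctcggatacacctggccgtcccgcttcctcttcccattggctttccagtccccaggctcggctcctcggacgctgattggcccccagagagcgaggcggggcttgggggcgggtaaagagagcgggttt

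For the other 5 genes the element is printed with 10 bases on either side.
Dnajc3 (chr14:118937817-118937855, +): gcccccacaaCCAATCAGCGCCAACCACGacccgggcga
Pdia6 (chr12:17266481-17266519, +): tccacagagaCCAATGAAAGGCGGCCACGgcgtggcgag
Calr (chr8:84847065-84847103, -): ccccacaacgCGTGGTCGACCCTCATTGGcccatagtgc
Syvn1 (chr19:6046522-6046560, +): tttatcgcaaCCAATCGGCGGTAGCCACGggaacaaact
Canx (chr11:50325790-50325828, -): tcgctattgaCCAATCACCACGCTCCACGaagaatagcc

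A second form (ATTGG, 1 base of any kind, then CCACG) was present in 12 windows (0.0365%), and the core bound by XBP1 and ATF6, TGACGTGG, in 222 (0.676%). The sequence around 1 match of the second form (Herpud1) and 3 of the core (Txndc5, Sec24d, Ube2j1) follows. These genes stand on the lists of ER genes used below and were chosen with results of these data known. The match of Ube2j1 is on the opposite strand. A match is a run of letters, and binding was not tested.
Herpud1 (chr8:94386367-94386397, +): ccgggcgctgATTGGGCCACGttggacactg
Txndc5 (chr13:38528035-38528062, -): gcctcgccgcTGACGTGGcgctagccgc
Sec24d (chr3:123267460-123267487, +): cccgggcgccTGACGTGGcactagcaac
Ube2j1 (chr4:33031302-33031329, +): gaagcgcccgCCACGTCAggccgacttc

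Immunoglobulin genes (226 genes by annotation, Jchain not among them) took 1.81 to 4.74% of the UMIs of the naive B cell libraries (2.84 ± 1.12%, SD, n = 8) and 47.97 to 53.2% of those of the plasma cell libraries (49.7 ± 1.73%, SD, n = 8). The ranges did not overlap and the share was higher in plasma cells of 8 of 8 mice (two-sided exact paired permutation p = 0.0078, the smallest that 8 pairs can give; adjusted p = 0.0117 over 15 library measures). Library totals ran from 103461 to 159857 UMIs in naive B cells and from 526471 to 794273 in plasma cells. Outside immunoglobulin genes they ran from 101584 to 152282 and from 265770 to 413283, a 2.74-fold difference of the means at the same number of sorted cells. In bulk libraries fewer cells of a type and less RNA per cell cannot be told apart. Naive B cells therefore set the precision, and more genes had a UMI in plasma cells (11117 to 12200) than in naive B cells (9279 to 10255). Mitochondrial transcripts made up 2.58 ± 0.0984% of UMIs outside immunoglobulin genes in naive B cells and 1.89 ± 0.212% in plasma cells (n = 8 each), and Gm42418, which overlaps ribosomal RNA, 0.338 ± 0.0931% and 1.64 ± 0.83%.

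Because immunoglobulin genes would otherwise set the scale of the plasma cell libraries, their UMIs were left out of the library totals and of the TMM scaling factors. CPM below are UMIs scaled to a common library total in that way, and immunoglobulin genes were tested in the same fit against the same totals. Counting immunoglobulin UMIs in the totals and keeping TMM moved the median fold change by 0.05 on the log2 scale. With immunoglobulin UMIs in the totals and no TMM factor, the median over all genes moved by -1.14, and 468 genes were called higher and 2994 lower, in place of 1344 and 1260.

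The markers of either population followed the labels. Of the plasma cell markers beside Sdc1, which the sort used, Jchain, Mzb1, Xbp1, Prdm1, Irf4, Tnfrsf17, Derl3, Fkbp11 and Slamf7 were higher in plasma cells; of the naive B cell markers that could be tested, Ms4a1, Cd79a, Fcer2a, Cr2, Ccr7, Cxcr5, Ebf1 and Klf2 were lower. T cell markers summed to 139 to 274 CPM in naive B cells and 86.1 to 264 CPM in plasma cells (higher in 1 of 8 mice, exact paired permutation, adjusted p = 0.0721). In naive B cells Cd3e, Cd3d, Cd4, Cd8b1, Trac and Cd247 were at 0 UMIs, and Cd2 and Lck gave 183 of 203 UMIs. In plasma cells they gave 81 of 338, 15 of the 16 markers had a UMI and Trac alone had none. Of these markers Cd2 passed the low-count filter and was lower. Without the filter 7 were higher (Cd3e, Cd3g, Cd4, Trbc2, Cd247, Thy1 and Lat) and 2, Cd2 and Lck, lower (median log2 fold change 1.95); Cd3e had 0 UMIs over the naive B cell libraries and 29 over the plasma cell libraries, and Trbc2 3 and 44. Monocyte and macrophage markers summed to 0 to 51.9 CPM in naive B cells and 44.1 to 144 CPM in plasma cells (higher in 8 of 8 mice, exact paired permutation, adjusted p = 0.0117), with C1qb, C1qc, Vcam1, Cd14, Hmox1 and Slc40a1 at 0 UMIs in naive B cells. Without the filter 3 of these 14 were higher and 0 lower. Of members named after their values were seen, Cd68 had 4 UMIs in naive B cells and 73 in plasma cells, and Itgam 8 and 63. Adgre1, C1qa and Marco had lower means in plasma cells, at no more than 4 UMIs in either population. NK cell markers summed to 6.87 ± 10.2 CPM in naive B cells and 21.4 ± 8.70 CPM in plasma cells (SD, n = 8 each; higher in 6 of 8 mice, exact paired permutation, adjusted p = 0.0488), with Ncr1 and Gzmb at 0 UMIs in both and, in naive B cells, Gzma and Eomes too. Dendritic cell markers summed to 792 to 1159 and 767 to 1015 CPM, nearly all from Irf8, Tcf4 and Bst2, which B lineage cells express too. GC B cell markers summed to 328 to 519 CPM in naive B cells and 212 to 343 CPM in plasma cells, but the members were split. Gpr183 and Elmo1, the 2 that passed the filter, were lower. Without the filter 3 of the 12 were higher and 3 lower. Of members named after their values were seen, Nuggc had a mean of 7.48 CPM in naive B cells and 60.4 CPM in plasma cells. Neil1 had 11.8 and 45.2 CPM, and Bcl6 44.3 and 4.41 CPM. Erythroid and platelet markers reached 344 CPM in the naive B cell library of mouse 6 and at most 54.2 CPM in plasma cells. Neutrophil markers were at 0 to 12.1 CPM in naive B cells and, in plasma cells, reached 373 CPM in mouse 15; without this mouse 1316 genes were called higher and 1227 lower. Their part in the results was not tested.

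Naive B cell libraries held a small amount of plasma cell transcripts. Jchain, which joins IgM and IgA multimers, stood in naive B cells at 2.65% of its plasma cell mean, Slpi at 1.34%, Tnfrsf17 at 1.51%, Sdc1 at 3.14%, Mzb1 at 5.32% and Xbp1 at 6.55%. Irf4, which naive B cells express, stood at 18.3%. Of the switched heavy chain genes, Ighe stood at 0.904%, Ighg1 at 1.18%, Ighg2c at 1.30%, Ighg2b at 1.35%, Igha at 1.6004% and Ighg3 at 3.614%. Ighm stood at 5.246%. The source of these UMIs was not tested.

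Across 3738 genes tested, 1344 (36.0%) were called higher and 1260 (33.7%) lower in plasma cells (edgeR quasi-likelihood test with mouse as a block, Benjamini-Hochberg adjusted p under 0.05). By more than 2-fold, 786 (21.0%) were higher and 619 (16.6%) lower. The 8 plasma cell libraries lay wholly above the 8 naive B cell libraries for 819 genes (21.9%) and wholly below for 694 (18.6%). Among 2731 genes whose mean reached the low-count filter (47.8 CPM) in both populations, 841 (30.8%) were higher and 865 (31.7%) lower. A gene below that level in 1 population was mostly tested because the other lay above it, so the filter favoured a difference for such a gene. For the gene lists below, the counts over members above the level in both populations are therefore given too, to be read against these 2 shares.

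The 10 genes that gained most among those above 100 CPM were Cd28, Ckb, Oosp1, Tent5c, Slpi, Hid1, Bhlha15, Ly6c2, Tnfrsf17 and Ccr10. Cd28, a costimulatory receptor that plasma cells share with T cells, whose markers are given above (chromosome 1, 60716800 to 60773359, GENCODE M21 on GRCm38, as for the coordinates of the genes below), had no UMI in any naive B cell library and a median of 197 CPM in plasma cells (123 to 281). Against a floor of 3 UMIs over the naive B cell group it was at least 66.9-fold higher. Ckb, brain creatine kinase, likewise had no UMI in naive B cells and was at least 47.99-fold higher. Tent5c, a poly(A) polymerase that stabilises immunoglobulin and other secretory messages, had a median of 11.9 CPM in naive B cells (0 to 33.95) and 1502 CPM in plasma cells (1351 to 1747). Its log2 fold change was 6.64 ± 0.17 (SE; adjusted p = 1.09e-77). Slpi, a secreted protease inhibitor, was the most abundant of the 10 with a median of 131 CPM in naive B cells (33.95 to 284) and 10122 CPM in plasma cells (5856 to 12157). Bhlha15 encodes MIST1, a transcription factor of secretory cells, and rose by 5.87 ± 0.26; Hid1, of dense-core vesicle and Golgi function, rose by 6.12 ± 0.28, Ly6c2, a surface antigen, by 5.80 ± 0.12, and Oosp1 by 6.88 ± 0.43 (log2 ± SE).

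The 10 genes that lost most were Fam43a, Ms4a4c, Ccr7, Hhex, Fcer2a, Cnn3, Plaur, Serpinb1a, H2-Oa and Zfp318. Fcer2a, the low-affinity IgE receptor CD23 of follicular B cells (chromosome 8, 3681737 to 3694175), had a median of 1199.9 CPM in naive B cells (1049.6 to 1438) and 12.1 CPM in plasma cells (5.24 to 22.8). That is a log2 fold change of -6.53 ± 0.15 (SE; adjusted p = 1.54e-85). Ccr7, the receptor that guides B cells to T cell zones, had a median of 179 CPM in naive B cells (127 to 245) and 0 CPM in plasma cells (0 to 3.99). Hhex, a homeobox factor of memory B cell fate, had a median of 331 CPM in naive B cells (292 to 416) and 3.12 CPM in plasma cells (0 to 5.24). Zfp318, which IgD transcripts need, changed by -6.19 ± 0.38 on the log2 scale, and Fam43a, Ms4a4c, Cnn3, Plaur (the urokinase receptor) and Serpinb1a (a neutrophil elastase inhibitor) by -7.54, -7.13, -6.44, -6.43 and -6.30. The libraries of the 2 populations did not overlap for any of these 20 genes.

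Of 9 transcription factors of plasma cells 8 were tested, and 7 were higher and 1 lower. As 5 of the 8 lay below the filter level in naive B cells, no direction of the list is read from this; of the 3 above it in both populations 2 were higher and 1 lower. Xbp1 (chromosome 11, 5520659 to 5525893) had 264 (lowest), 431 (median) and 748 CPM (highest) in naive B cells and 5909, 7681 and 8785 CPM in plasma cells. Its lowest plasma cell library lay above every naive B cell library, at a log2 fold change of 3.94 ± 0.20 (SE; adjusted p = 5.74e-08). Prdm1, the gene of Blimp-1 (chromosome 10, 44437177 to 44528501), was scarce, with 0 (lowest), 0 (median) and 25.9 CPM (highest) in naive B cells and 84.2, 103 and 168 CPM in plasma cells, and rose by 4.32 ± 0.39 (adjusted p = 8.53e-21). Irf4, which both activated B cells and plasma cells express, had 60.3 (lowest), 98.1 (median) and 127 CPM (highest) in naive B cells and 348, 548 and 680.2 CPM in plasma cells, and rose by 2.45 ± 0.14 (adjusted p = 2.31e-37). Also higher were Creb3l2 (4.77), an ER-anchored factor, Ell2 (3.85), an elongation factor that favours secretory immunoglobulin messages, and Atf6 (2.89). Mef2c, better known as a B cell factor, had a median of 268 CPM in naive B cells (190.3 to 356) and 177 CPM in plasma cells (140.4 to 199.6), a log2 fold change of -0.60 ± 0.13; its ranges overlapped.

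**Figure D1:**
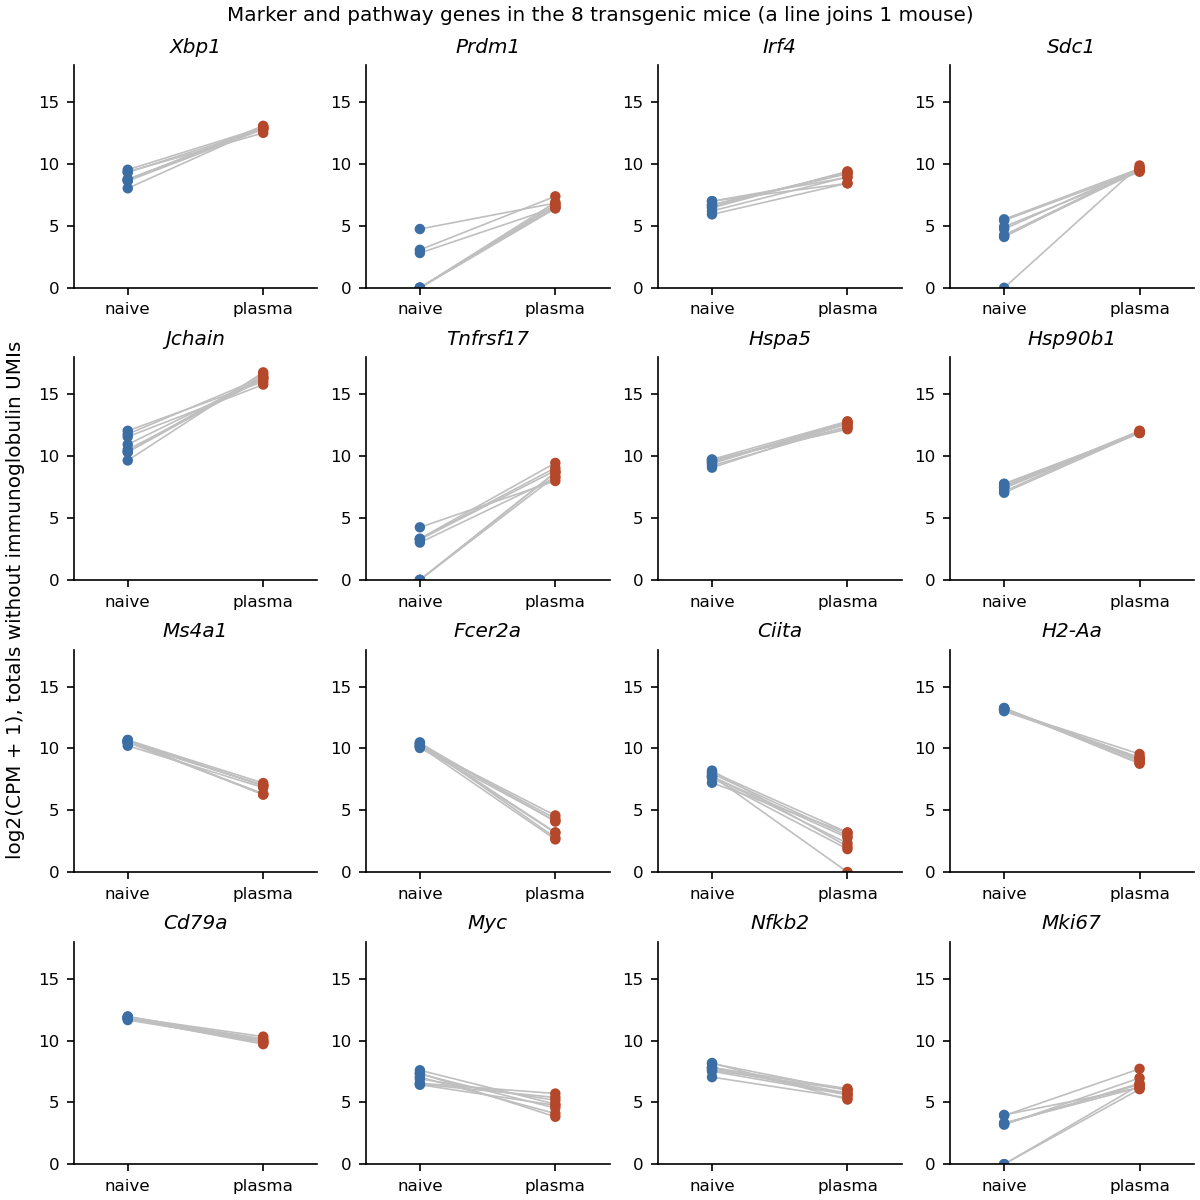
Levels of 16 genes in the 8 transgenic mice, as log2(CPM + 1) with immunoglobulin UMIs outside the totals; blue points are naive B cell libraries, red points plasma cell libraries, and a grey line joins the libraries of 1 mouse. Lines run upward in all 8 mice for Xbp1, Prdm1, Irf4, Sdc1, Jchain, Tnfrsf17, Hspa5, Hsp90b1 and Mki67, and downward for Ms4a1, Fcer2a, Ciita, H2-Aa, Cd79a, Myc and Nfkb2.

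Of 30 surface and identity genes of plasma cells 26 were tested, and 25 were higher and 1, Cxcr4, lower. Naive B cells lay below the filter level for 15 of the 26; of the other 11, 10 were higher and 1 lower (median log2 fold change 3.90). Jchain had a median of 1735 CPM in naive B cells (810.3 to 4271) and 84030.2 CPM in plasma cells (57083 to 113137), and rose by 5.38 ± 0.44 (SE; adjusted p = 8.23e-06). Tnfrsf17, the survival receptor BCMA, had a median of 7.88 CPM in naive B cells (0 to 18.1) and 411 CPM in plasma cells (255 to 704). Sdc1, which the sort used, had a median of 22.02 CPM in naive B cells (0 to 45.5) and 777 CPM in plasma cells (667 to 948). Ccr10, a homing receptor of antibody-secreting cells, had a median of 0 CPM in naive B cells (0 to 8.16) and 179 CPM in plasma cells (59.98 to 418). Cxcr4, which holds plasma cells in bone marrow, fell in 8 of 8 mice and had a median of 385 CPM in naive B cells (265 to 458) and 221 CPM in plasma cells (129 to 345), with overlapping ranges and a log2 fold change of -0.69 ± 0.13.

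Immunoglobulin constant genes were among the most abundant transcripts of plasma cells. All 8 that were tested, each above the filter level in both populations, were higher. Igha had 3637 ± 1848 CPM in naive B cells and 227277 ± 70935 CPM in plasma cells (SD, n = 8), Ighg2b 2280.4 ± 1198 CPM in naive B cells and 168729 ± 58224 CPM in plasma cells, Ighg2c 1991 ± 1156 CPM in naive B cells and 152924 ± 59930.5 CPM in plasma cells and Ighg1 1481 ± 761 CPM in naive B cells and 125554 ± 43507 CPM in plasma cells. Igkc, the kappa light chain, had 7403 ± 2741 CPM in naive B cells and 201030.0 ± 22628 CPM in plasma cells. Constant genes made up 96.8% of immunoglobulin UMIs in plasma cells and 93.9% in naive B cells, variable segments 2.74% and 5.51%; 3′ counting reads the constant end. These genes share near-identical stretches, and no source used here says how the authors placed reads that match several of them.

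Among heavy chain constant genes, switched isotypes took most UMIs of the transgenic plasma cell libraries (85.9 ± 4.25%, SD, n = 8). They also took most in the naive B cell libraries (60.3 ± 6.02%) and in the plasma cell libraries of controls (57.7 ± 9.80%). A share of UMIs is not a share of cells. Ighm took 31.9 to 46.5% of heavy chain constant UMIs in naive B cells (39.7 ± 6.02%) and 8.4 to 19.4% in plasma cells (14.1 ± 4.25%, SD, n = 8), lower in 8 of 8 mice (two-sided exact paired permutation p = 0.0078, adjusted p = 0.0176). The ranges did not overlap. The gate took naive B cells low in IgM, the product of Ighm, so the Ighm share is not independent of the sort. Ighd is not analysed here, so the naive B cell shares leave out IgD, for which these cells were also sorted. Whether the switched UMIs of the naive B cell libraries came from naive B cells was not tested. The naive B cell shares therefore describe the libraries and not the isotypes that naive B cells carry. Ighg2c took 11.7 ± 1.92% in naive B cells and 18.6 ± 6.54% in plasma cells, higher in 8 of 8 mice (exact paired permutation, adjusted p = 0.0176). Ighg1 took 8.91 ± 0.881% and 15.7 ± 5.62%, higher in 7 of 8 mice (exact paired permutation, adjusted p = 0.0281), and Ighg2b 13.6 ± 1.53% and 20.9 ± 7.75%, higher in 7 of 8 (exact paired permutation, adjusted p = 0.0301). Ighg3 took 4.03 ± 0.822% and 2.31 ± 1.07%, lower in 7 of 8 mice (exact paired permutation, adjusted p = 0.0301). For Igha, 21.9 ± 1.99% and 28.01 ± 8.6%, the difference did not pass (exact paired permutation, adjusted p = 0.123), nor for Ighe, 0.124 ± 0.104% and 0.289 ± 0.29% (exact paired permutation, adjusted p = 0.195).

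The spread between mice was wider in plasma cell libraries than in naive B cell libraries for several isotypes. Ighg1 ran from 4.17% (mouse 5) to 23.0% (mouse 14) in plasma cells and from 7.66 to 9.92% in naive B cells; Igha ran from 18.5% (mouse 6) to 44.7% (mouse 13) against 19.6 to 24.4%. The naive B cell libraries held switched transcripts at 60.3 ± 6.02% of their heavy chain constant UMIs and the plasma cell libraries at 85.9 ± 4.25% (higher in 8 of 8 mice, exact paired permutation, adjusted p = 0.0176). The test did not address the spread between mice or the source of the switched UMIs in the naive B cell libraries. As given above, Ighg1, Ighg2b, Ighg2c and Igha stood there at percentages of their plasma cell means near those of Slpi and Tnfrsf17. Their percentages lay below those of Jchain, Sdc1, Mzb1 and Xbp1. Plasma cell genes thus gave no single percentage to compare with, and the source of the switched UMIs was not tested. Ighg3 stood above the other switched genes and Ighe below them. The kappa share of light chain constant UMIs was 76.6 ± 3.37% in naive B cells and 92.0 ± 3.24% in plasma cells, higher in 8 of 8 mice (exact paired permutation, adjusted p = 0.0176). Only Iglc2 stands for the lambda chains here.

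**Figure D2:**
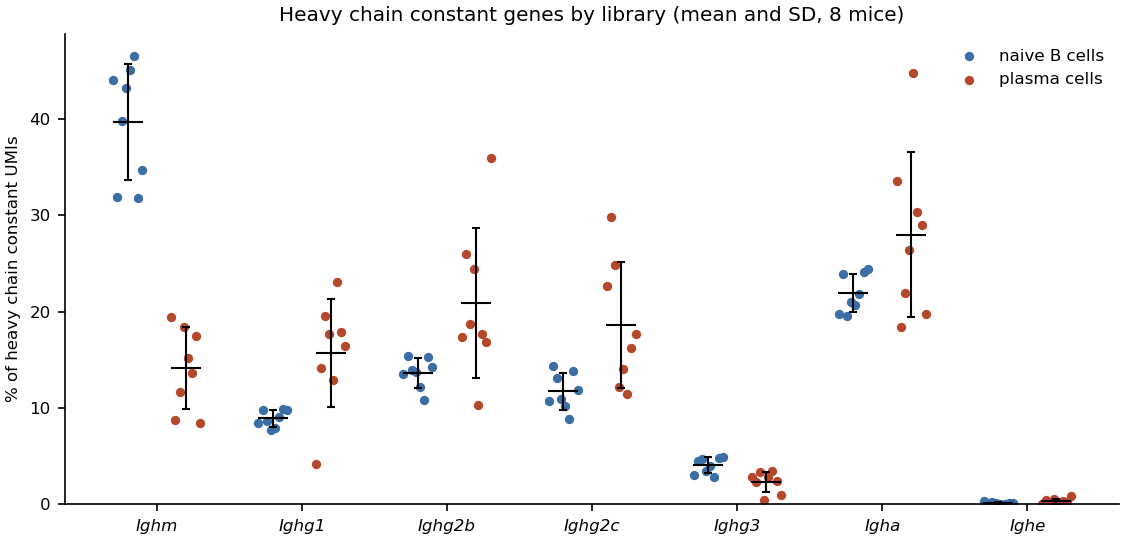
Share of each heavy chain constant gene among the heavy chain constant UMIs of a library, in percent; a point is 1 library, with the mean and SD of 8 mice as bars. Ighm falls from 39.7 to 14.1%, and the plasma cell points of Ighg1, Ighg2b, Ighg2c and Igha spread far wider than the naive B cell points.

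Genes of the unfolded protein response rose in plasma cells without exception among those tested. Of 12 tested (of 16 in the table), 12 were higher, 12 by more than 2-fold; this held for 8 of 8 above the filter level in both populations (median log2 fold change 3.64). Edem1, which hands misfolded glycoproteins to degradation, had a median of 32.6 CPM in naive B cells (8.16 to 60.5) and 921 CPM in plasma cells (826 to 1107). Dnajb9, an ER co-chaperone, rose by 4.40 ± 0.15, Sdf2l1, which assists the chaperone BiP, by 4.05 ± 0.11, and Creld2, an ER disulfide isomerase, by 3.79 ± 0.25 (log2 ± SE).

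Chaperones and disulfide isomerases of the ER followed, with 22 of 22 tested members higher, and 17 of 17 above the filter level in both populations (median 2.92). Hspa5, the gene of BiP, had 541 (lowest), 738 (median) and 857 CPM (highest) in naive B cells and 4671, 6309 and 7264 CPM in plasma cells. The lowest plasma cell library exceeded the highest naive B cell library, and the log2 fold change was 3.08 ± 0.09 (SE; adjusted p = 5.78e-69). Hsp90b1, the ER form of HSP90 (GRP94), had 131 (lowest), 181 (median) and 219 CPM (highest) in naive B cells and 3749, 3845 and 4292 CPM in plasma cells. That was 4.47 ± 0.10 (adjusted p = 2.73e-87). Mzb1, a B lineage partner of GRP94 in immunoglobulin assembly, had a median of 895 CPM in naive B cells (702 to 1021) and 16169 CPM in plasma cells (14428 to 17762). Fkbp11, a peptidyl-prolyl isomerase, Prdx4, a peroxiredoxin of the ER, and Lman1, a cargo receptor for glycoproteins, rose by 4.89, 4.64 and 4.62.

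ER-associated degradation returns misfolded proteins to the cytosol for destruction. All 16 tested members were higher, as were 12 of 12 above the filter level in both populations (median 2.76). Derl3, a channel component, had a median of 65.4 CPM in naive B cells (25.5 to 115) and 2907 CPM in plasma cells (2709 to 3085), and rose by 5.37 ± 0.12 (adjusted p = 3.79e-87). Edem2, Sel1l, the scaffold of the HRD1 ligase, and Erlec1, a lectin, rose by 3.90, 3.46 and 3.25.

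Entry into and exit from the ER rose too. For the translocon, signal peptidase and oligosaccharyltransferase, 32 of 32 tested members were higher, and 27 of 27 above the filter level in both populations (median 2.47); among them were Tram2 (4.89), Ssr4 of the translocon-associated complex (3.88), the signal peptidase subunits Spcs3 (3.48) and Sec11c (3.47), and Rpn1 of the oligosaccharyltransferase (3.28). For COPI and COPII vesicle coats and their cargo receptors, 29 of 29 were higher, and 23 of 23 above that level in both (median 2.05). Sec24d, a COPII cargo adaptor, had a median of 0 CPM in naive B cells (0 to 12.1) and 217 CPM in plasma cells (147 to 295), and rose by 5.66 ± 0.33; its paralog Sec24a rose by 3.03 ± 0.23, Tmed10 by 3.07 ± 0.11 and Mcfd2, the partner of Lman1, by 3.14 ± 0.38. Under scaling with immunoglobulin UMIs in the totals and no TMM factor the medians over tested members lay between 1.01 and 2.49, and 2 members of the translocon list and 1 of the coat list were then called lower.

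All 9 tested genes whose promoter holds the ER stress response element shown above were higher, by a median of 3.08 on the log2 scale, where 36.0% of all tested genes were. The values were 5.37 for Derl3, 4.47 for Hsp90b1, 3.79 for Creld2, 3.74 for Dnajc3, 3.08 for Hspa5, 2.92 for Pdia6, 2.30 for Calr, 1.64 for Syvn1 and 1.06 for Canx. All 9 stand on the ER lists as well, so their position on those lists and their promoter letters cannot be told apart. Of 37 tested genes with TGACGTGG, 26 were higher, 4 lower and 7 not called (median 0.94); Txndc5, an ER disulfide isomerase, rose by 3.95, Sec24d by 5.66 and Ube2j1, an ER ubiquitin-conjugating enzyme, by 3.16. Of 6 with the second form, 4 were higher and 1 lower, Herpud1 being one of the 4. The bare CCAAT box was in 37.4% of windows, and 465 of 1236 tested genes with it were higher and 382 lower. Another 8 strings, for interferon, ETS and IRF, kappaB, and the X and Y boxes of class II promoters, were searched in the same way and are not described further.

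**Figure D3:**
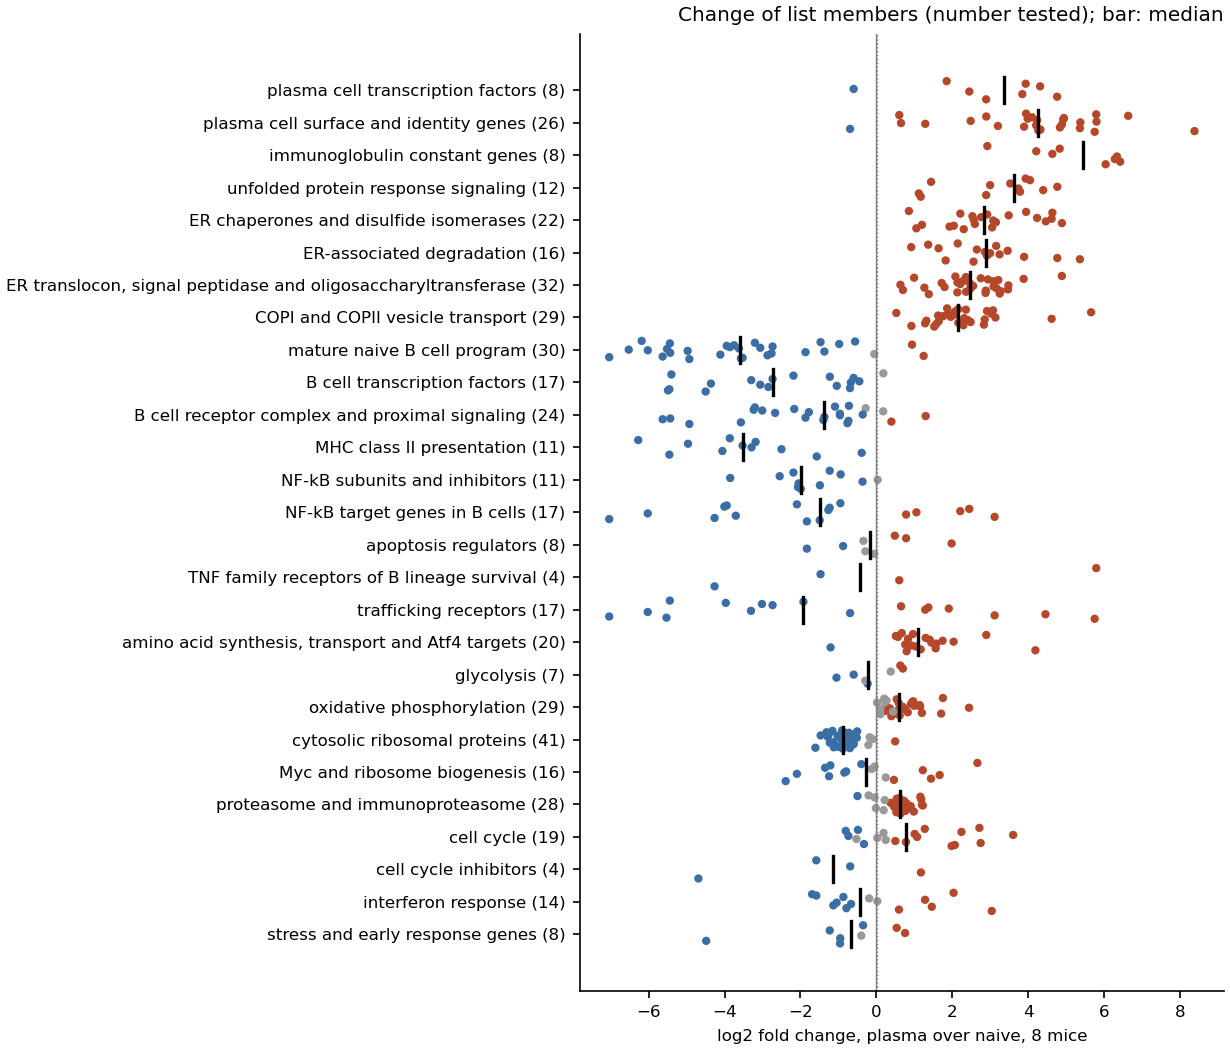
Log2 fold change, plasma over naive, of each tested member of the gene lists; red points were called higher, blue lower and grey neither, a black bar marks the median of a list, and the number tested stands in brackets. The 5 ER lists lie wholly to the right of 0, class II presentation wholly to the left, and the ribosomal proteins form a narrow band near -0.89.

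The naive B cell program was lower in plasma cells. Of its 30 members, all tested, 27 were lower, 2 (Cd24a and Pou2af1) higher and 1, Cd52, named after its value was seen, was not called. Plasma cells lay below the filter level for 14; of the 16 above it in both populations 13 were lower and 2 higher (median -2.30). Ms4a1, which encodes CD20, had 1188 (lowest), 1471 (median) and 1647 CPM (highest) in naive B cells and 75.98, 118 and 146 CPM in plasma cells. No plasma cell library reached a naive B cell library, and the log2 fold change was -3.75 ± 0.10 (SE; adjusted p = 2.50e-76). Cxcr5, the follicle-homing receptor, had a median of 820.3 CPM in naive B cells (719 to 874) and 9.36 CPM in plasma cells (3.19 to 19.99). Cd22, an inhibitory receptor, changed by -5.63 ± 0.16. Cd24a, a surface sialoglycoprotein, was higher in plasma cells of 8 of 8 mice at 1.25 ± 0.09, and Pou2af1, the coactivator OCA-B that immunoglobulin genes need, at 0.94 ± 0.08; with immunoglobulin UMIs in the totals and no TMM factor Cd24a was no longer called and Pou2af1 turned lower.

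Most B cell transcription factors were lower in plasma cells. Of 17 tested of 21 in the table, 16 were lower and 0 higher, and 9 of the 10 above the filter level in both populations were lower (median -0.87); the exception was Tcf3 (E2A), singled out after its value was seen, at 0.18 ± 0.15. Bcl11a, Ciita, Spib and Bach2 fell most. Bach2, the repressor that holds back plasma cell fate, had a median of 138 CPM in naive B cells (95.1 to 166) and 6.93 CPM in plasma cells (0 to 11.98). Spib, an ETS factor, had a median of 799 CPM in naive B cells (709 to 959) and 16.3 CPM in plasma cells (8.77 to 35.9). Id3, an inhibitor of E proteins, changed by -4.36 ± 0.21. Ebf1, an early B cell factor, differed much less, with a median of 187 CPM in naive B cells (146 to 228) and 120.0 CPM in plasma cells (84.7 to 146), overlapping ranges and a log2 fold change of -0.69 ± 0.15 (adjusted p = 2.44e-05). Pax5 did not pass the low-count filter, with 34 UMIs over the naive B cell libraries and 5 over the plasma cell libraries; without the filter its log2 fold change was -3.63 ± 0.57 (edgeR, adjusted p = 1.75e-09).

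The B cell receptor and its proximal signaling were lower in part. Of 24 tested, 20 were lower and 2 higher. Of the 18 above the filter level in both populations 14 were lower and 2 higher (median -0.96). Ptprc, which the sort used, is among the lower genes. Cd79a, a signaling chain of the receptor, kept a substantial level in plasma cells, with 3227 (lowest), 3688 (median) and 3970.2 CPM (highest) in naive B cells and 834, 968 and 1274 CPM in plasma cells, although the groups did not overlap (-1.87 ± 0.08, adjusted p = 3.69e-54). Inhibitory and adaptor molecules fell further. Cd72, an inhibitory receptor, had a median of 301 CPM in naive B cells (237 to 373) and 2.77 CPM in plasma cells (0 to 19.9). Bank1 changed to a log2 fold change of -4.93 ± 0.16, the kinase Blk to -3.57 ± 0.17 and the phosphatase Ptpn6 (SHP-1) to -3.23 ± 0.10. The 2 higher members were Cd81, a coreceptor tetraspanin (1.30 ± 0.08), and Blnk, the adaptor that links SYK to BTK (0.40 ± 0.08). Blnk turned lower with immunoglobulin UMIs in the totals and no TMM factor, where 24 of 25 tested members were lower.

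Class II antigen presentation fell in all 11 tested members, of 17 in the table, and in 9 of 9 above the filter level in both populations (median -3.29). H2-Aa, a class II alpha chain, had 8258 (lowest), 9332 (median) and 9881 CPM (highest) in naive B cells and 433, 552 and 745 CPM in plasma cells. The plasma cell libraries lay far below, at -4.06 ± 0.09 (SE; adjusted p = 5.17e-86). Ciita, the master coactivator of class II genes (chromosome 16, 10480059 to 10528418), had a median of 216 CPM in naive B cells (148 to 294) and 4.93 CPM in plasma cells (0 to 8.24). H2-Oa and H2-Ob, the chains of the peptide-exchange inhibitor H2-O, changed by -6.28 ± 0.16 and -3.86 ± 0.11, and H2-DMb2 by -4.97 ± 0.10.

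Rel itself, which encodes c-Rel (chromosome 11, 23736847 to 23770970), was too scarce for the test. It had 0 to 64.0 CPM in naive B cells (34 UMIs over 8 libraries) and 0 to 20.6 CPM in plasma cells (18 UMIs). The ranges overlapped, and without the filter its log2 fold change was -1.89 ± 0.45 (edgeR, adjusted p = 0.000161). In control mice Rel had 37.4 ± 20.03 CPM in naive B cells and 0.6 ± 1.7 CPM in plasma cells (SD, n = 8 each), and the difference of the change between genotypes did not pass without the filter (3.14 on the log2 scale, adjusted p = 0.0763). No source used here says whether transgene reads count toward Rel, so its level is no check of the genotype.

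Of 11 NF-kB subunits and inhibitors tested (of 17), 10 were lower and 0 higher, the uncalled one being Nfkbib, named after its value was seen. Plasma cells lay below the filter level for 6 of the 11, and of the 5 above it in both populations 4 were lower (median -0.94). None was higher under any of the 7 alternatives run on this list, the mouse block left out included, where 9 were lower. Nfkb2, the p100/p52 subunit, had 131 (lowest), 218 (median) and 289.5 CPM (highest) in naive B cells and 36.5, 50.5 and 67.9 CPM in plasma cells. The groups did not overlap, at -2.05 ± 0.17 (SE; adjusted p = 1.42e-22). Relb, its partner, changed by -2.19 ± 0.20, Map3k14, the NIK kinase of the same branch, by -2.07 ± 0.27, and the inhibitors Nfkbid and Nfkbie by -3.85 ± 0.30 and -2.55 ± 0.20. Of 17 tested NF-kB target genes 12 were lower and 5 higher, and 4 and 3 of the 7 above the filter level in both populations. The 5 were Cd44, an adhesion receptor (3.12 ± 0.16), Irf4, Gadd45b (2.21 ± 0.26), Ebi3, a cytokine subunit of IL-27 and IL-35 (1.06 ± 0.28), and Cflar, an inhibitor of caspase-8 (0.78 ± 0.21). Those lower included Cd40, the T cell help receptor, with a median of 228 CPM in naive B cells (163 to 282) and 8.11 CPM in plasma cells (0 to 25.5), and the lymphotoxin genes Lta (-4.01 ± 0.31) and Ltb (-3.94 ± 0.20).

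Survival genes went in both directions. Of 8 tested apoptosis regulators 3 were higher and 2 lower, and 2 and 1 of the 6 above the filter level in both populations. Bcl2 had a median of 97.2 CPM in naive B cells (50.9 to 149) and 24.7 CPM in plasma cells (6.63 to 41.2), and changed by -1.83 ± 0.25; Mcl1, on which plasma cells depend, rose by 0.49 ± 0.12 with overlapping ranges, Birc5 by 1.98 ± 0.27, and the proapoptotic Bid changed by -0.88 ± 0.21. Mcl1 and Cflar turned lower with immunoglobulin UMIs in the totals and no TMM factor. Among the 4 tested TNF family receptors, BCMA (Tnfrsf17) and TACI (Tnfrsf13b, 0.60 ± 0.11) were higher, and the BAFF receptor Tnfrsf13c, with a median of 896 CPM in naive B cells (775 to 959) and 310.4 CPM in plasma cells (245 to 397), and Cd40 were lower; TACI turned lower under that same scaling.

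Of 17 trafficking receptors tested 7 were higher and 10 lower. Plasma cells lay below the filter level for 7 of them and naive B cells for 2; of the 8 above it in both populations 5 were higher and 3 lower (median 0.97). Cxcr3, a receptor for inflammatory chemokines, had a median of 8.32 CPM in naive B cells (0 to 42.7) and 262 CPM in plasma cells (181 to 444). The integrin chains Itgal and Itgb2, which form LFA-1, rose by 1.91 ± 0.14 and 1.37 ± 0.14. S1pr1, the egress receptor, changed by -3.97 ± 0.18, and Ccr6 by -5.53 ± 0.35.

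Genes of amino acid supply were mostly higher. Of 20 tested genes of amino acid synthesis, transport and the ATF4 response 19 were higher and 1, Ddit4, lower (-1.21 ± 0.21); of the 13 above the filter level in both populations 12 were higher (median 0.93). Asns, asparagine synthetase, had a median of 7.26 CPM in naive B cells (0 to 16.3) and 140.4 CPM in plasma cells (89.5 to 168). Slc3a2, the shared chain of amino acid exchangers, had a median of 203 CPM in naive B cells (131 to 277) and 1377 CPM in plasma cells (1189 to 2177). Phgdh, of serine synthesis, rose by 1.75 ± 0.22, and the transfer RNA synthetases Nars and Mars by 2.04 ± 0.27 and 1.58 ± 0.21. With immunoglobulin UMIs in the totals and no TMM factor 4 were higher, 4 lower and the median was -0.04.

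Respiratory and proteasome genes rose by less. Of 29 tested genes of oxidative phosphorylation 21 were higher and 0 lower, all 21 among the 28 above the filter level in both populations (median 0.60); Ndufa1 of complex I rose by 2.44 ± 0.14, Uqcrq of complex III by 1.76 ± 0.14 and Atp5g1 of ATP synthase by 1.71 ± 0.14, Atp5g3 by 1.20 ± 0.10 and Ndufa4 by 1.15 ± 0.12. Of 28 proteasome genes 22 were higher, and 19 of the 25 above that level in both (median 0.61), among them the catalytic subunits Psmb5 (1.22 ± 0.16) and Psmb6 (1.20 ± 0.10) and the lid and base subunits Psmd8 (1.16 ± 0.10) and Psmd1 (1.18 ± 0.25), while Psme1, the interferon-induced activator, was lower (-0.50 ± 0.09). Both directions depend on scale: with immunoglobulin UMIs in the totals and no TMM factor 20 of 30 respiratory genes and 20 of 28 proteasome genes were lower. Glycolytic genes were mixed, with 2 of 7 higher and 3 lower; Pkm (0.70 ± 0.12) and Tpi1 (0.63 ± 0.18) were higher, and Gpi1 (-1.05 ± 0.12), Ldha (-0.60 ± 0.12) and Aldoa (-0.23 ± 0.08) lower, and under that scaling all 8 then tested were lower. Aldoa was no longer called with DESeq2 (adjusted p = 0.0583), without the filter (adjusted p = 0.712), with all 48 libraries (adjusted p = 0.112), in mice 13 to 16 alone (adjusted p = 0.323) or with immunoglobulin UMIs in the totals and TMM (adjusted p = 0.0506).

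Ribosomal proteins of the cytosol were lower. Of 41 tested 37 were lower and 1, Rpl41, higher (0.50 ± 0.10), with a median of -0.89; direction and count stayed the same with DESeq2 size factors and with immunoglobulin UMIs in the totals under TMM, and all 41 were lower without TMM. Rpl12 had a median of 1524 CPM in naive B cells (1393 to 1639) and 485 CPM in plasma cells (437 to 665). Rps19, Rps15 and Rps20 changed by -1.47 ± 0.11, -1.28 ± 0.10 and -1.26 ± 0.08. Myc, which drives ribosome synthesis, had 84.9 (lowest), 124 (median) and 193 CPM (highest) in naive B cells and 13.3, 27.1 and 51.4 CPM in plasma cells. It fell in 8 of 8 mice without overlap (-2.09 ± 0.23, adjusted p = 2.33e-15). Of 16 tested genes of Myc and ribosome biogenesis 8 were lower and 5 higher, and 5 and 4 of the 12 above the filter level in both populations. Npm1 (nucleophosmin), Nop56, Max (the partner of Myc) and Apex1 changed by -1.21, -1.35, -1.25 and -2.39, and Srm (spermidine synthase), Mxd4 (an antagonist of Myc), Cad (pyrimidine synthesis) and Nme1 by 2.66, 1.67, 1.44 and 1.23.

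**Figure D4:**
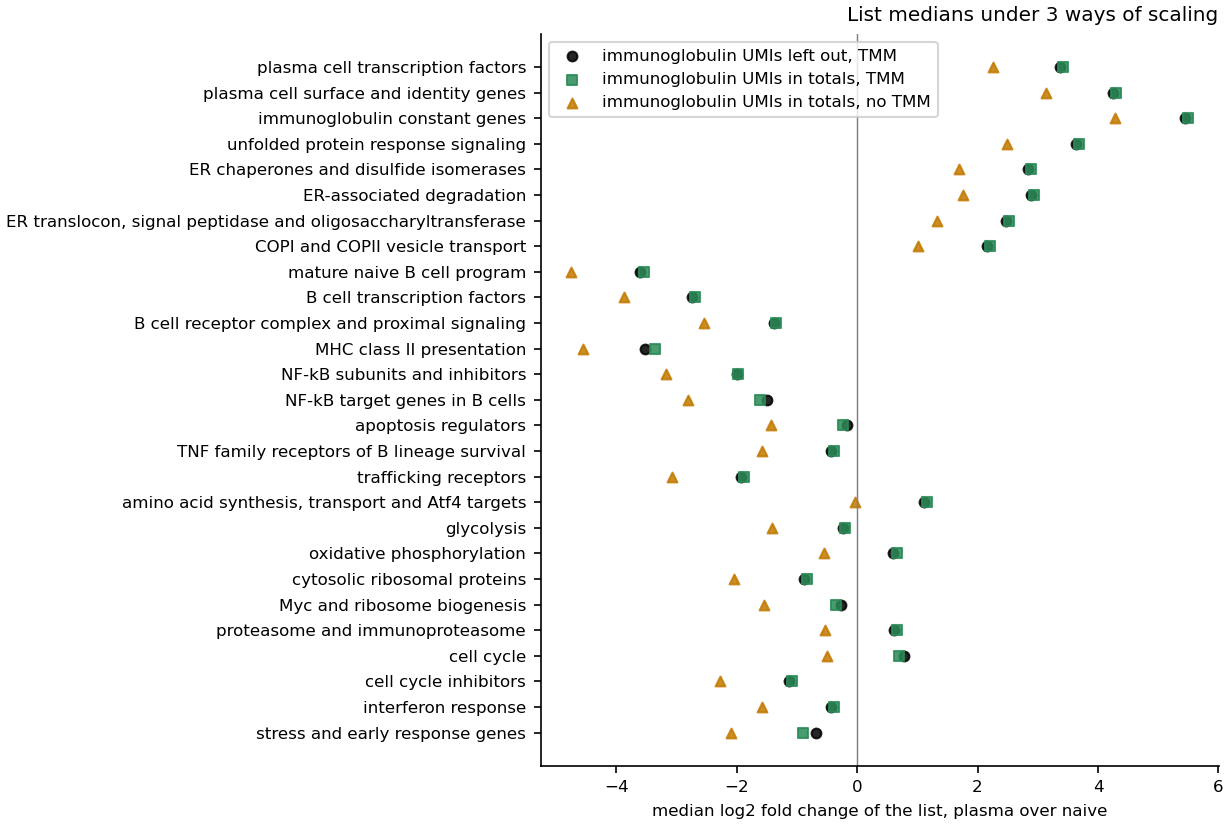
Median log2 fold change of each gene list under 3 scalings: immunoglobulin UMIs left out with TMM (black circles, used in the text), in the totals with TMM (green squares) and in the totals without TMM (orange triangles). Black and green lie close together, while the orange medians sit about 1.14 lower and cross 0 for amino acid supply, oxidative phosphorylation, the proteasome and the cell cycle.

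Of 42 cell cycle genes 19 were tested, and 11 were higher and 4 lower. Naive B cells lay below the filter level for 6 and plasma cells for 2; of the 11 above it in both populations 5 were higher and 3 lower (median 0.25); with immunoglobulin UMIs in the totals and no TMM factor 4 of 16 were higher and 8 lower (median -0.50). Mki67, the proliferation antigen Ki-67, had 0 (lowest), 8.57 (median) and 14.8 CPM (highest) in naive B cells and 65.96, 84.5 and 208 CPM in plasma cells. The groups did not overlap, at 3.61 ± 0.35 (SE; adjusted p = 1.77e-18). Ccne1, Ube2c, Rrm2 and Ccnd2, for cyclins, mitotic ubiquitination and deoxynucleotide synthesis, rose by 2.75, 2.72, 2.24 and 2.07. The 4 lower were Tuba1b (-0.81 ± 0.14), Mcm7 (-0.74 ± 0.24), Tubb5 (-0.49 ± 0.09) and Ccnd3 (-0.33 ± 0.14, adjusted p = 0.0343). Among 4 tested inhibitors of the cycle, Btg2 was higher (1.17 ± 0.10) and Btg1 (-4.69 ± 0.27), Cdkn2d (-1.58 ± 0.20) and Cdkn1b (-0.69 ± 0.25) lower, with plasma cells below the filter level for all 3; Btg1 had a median of 192 CPM in naive B cells (109 to 259) and 4.98 CPM in plasma cells (0 to 13.1). Cdkn1b was no longer called with DESeq2 (adjusted p = 0.0537), without the filter (adjusted p = 0.116) or in mice 13 to 16 alone (adjusted p = 0.353).

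Interferon response genes were split, 5 of 14 tested being higher and 7 lower, and 5 and 5 of the 12 above the filter level in both populations. Bst2 (tetherin) had a median of 68.7 CPM in naive B cells (43.8 to 84.5) and 557 CPM in plasma cells (427 to 689.9), Zbp1 rose by 2.04 ± 0.15, Igtp by 1.46 ± 0.15, Ly6a (Sca-1) by 1.28 ± 0.09 and Gbp4 by 0.60 ± 0.23. The factors Irf1, Irf9 and Stat2 changed by -1.13 ± 0.12, -1.05 ± 0.18 and -0.87 ± 0.25, and the near-identical neighbours Tgtp1 and Tgtp2, whose reads may be shared, by -1.58 ± 0.17 and -1.69 ± 0.17. Of 8 stress and early response genes, which also move during cell isolation, 5 were lower, namely the phosphatase Dusp2 (-4.49 ± 0.25), Junb (-1.23 ± 0.15), the chaperones Dnajb1 (-0.96 ± 0.13) and Hsph1 (-0.95 ± 0.19) and Zfp36 (-0.35 ± 0.10); Jun (0.76 ± 0.24) and Jund (0.54 ± 0.17) were higher. Without mouse 16 Jun was no longer called (0.44, adjusted p = 0.133), nor without the mouse block (0.75, adjusted p = 0.257). Jun, Jund and Gbp4 turned lower with immunoglobulin UMIs in the totals and no TMM factor.

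Whether the change from naive B cells to plasma cells differed between transgenic and control mice was tested over 32 libraries as an interaction. Of 4450 genes tested 15 (0.337%) changed further upward, or less downward, in transgenic mice and 92 (2.07%) further downward, or less upward. The call depended on tool and mice: DESeq2 gave 8 and 40, mice 1 to 8 alone 2 and 25, and mice 9 to 16 alone 6 and 39. On the ER lists 0 of 14 unfolded protein response genes, 0 of 16 degradation genes, 1 of 23 chaperones, 1 of 32 translocon genes and 1 of 30 coat genes passed, each of the 3 further downward, and of the 8 plasma cell transcription factors 0 did.

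Among genes of the NF-kB lists 4 of 13 subunits and inhibitors had a lower change in transgenic mice and 0 a higher one. Relb had lowest, median and highest levels of 84.7, 154 and 215 CPM in naive B cells and 13.5, 40.8 and 47.4 CPM in plasma cells in transgenic mice, and 54.1, 175 and 223 CPM in naive B cells and 47.97, 94.8 and 162 CPM in plasma cells in controls. The plasma cell libraries of controls all lay above those of transgenic mice. In the fit over both genotypes its log2 fold change was -2.14 ± 0.21 in transgenic mice and -0.76 ± 0.18 in controls, a difference of -1.38 ± 0.27 (SE; edgeR adjusted p = 2.68e-04). The differences of Nfkb2 and Nfkbie were -0.82 ± 0.23 (adjusted p = 0.0273) and -1.04 ± 0.29 (adjusted p = 0.0233). The survival gene Bcl2 changed by -1.78 ± 0.26 in transgenic mice and -0.43 ± 0.22 in controls (difference -1.35 ± 0.34, adjusted p = 0.00772).

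The 5 named genes with the largest lower change in transgenic mice were Prg2, Bhlhe40, Serpina3g, Pkib and Rgcc. Prg2, known as the major basic protein of eosinophil granules, had 8.25, 17.1 and 41.01 CPM in naive B cells and 282, 344 and 516 CPM in plasma cells in transgenic mice (lowest, median, highest), and 0, 0 and 17.8 CPM in naive B cells and 794, 979 and 1680.2 CPM in plasma cells in controls. The ranges of plasma cells did not overlap between genotypes, and the difference was -3.77 ± 0.63 (adjusted p = 5.64e-06). Serpina3g, a serine protease inhibitor, went in opposite directions, with -2.17 ± 0.21 in transgenic mice and 1.15 ± 0.22 in controls (difference -3.32 ± 0.30, adjusted p = 2.25e-11); it had 110.1, 193 and 374 CPM in naive B cells and 20.2, 49.2 and 68.6 CPM in plasma cells in transgenic mice. Controls had 54.1, 76.5 and 120.2 CPM in naive B cells and 95.9, 191 and 305 CPM in plasma cells. Bhlhe40, a transcriptional repressor, changed by -4.56 ± 0.47 in transgenic mice and -1.08 ± 0.37 in controls, Pkib, a protein kinase A inhibitor, by -5.07 ± 0.36 in transgenic mice and -2.83 ± 0.29 in controls, and Rgcc, a cell cycle regulator, by 3.37 ± 0.22 in transgenic mice and 5.60 ± 0.24 in controls.

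In the other direction stood Ssb, Arid3a, Impdh1, Fgd2 and Arhgap9. Arid3a, a factor linked to immunoglobulin heavy chain transcription, changed by 3.64 ± 0.22 in transgenic mice and 2.21 ± 0.20 in controls, and Impdh1, of guanine nucleotide synthesis, by 3.09 ± 0.23 in transgenic mice and 1.75 ± 0.20 in controls. Fgd2, a Cdc42 exchange factor, changed by -1.68 ± 0.15 in transgenic mice and -2.88 ± 0.18 in controls (difference 1.21 ± 0.25, adjusted p = 5.63e-04). For Ssb (the La RNA chaperone), Arid3a, Impdh1 and Arhgap9 the naive B cells of the genotypes stood further apart, as a ratio of medians, than the plasma cells. The medians in naive B cells were 22.3 CPM in transgenic mice and 51.9 CPM in controls for Ssb, 19.4 and 45.5 CPM for Arid3a, 25.1 and 48.4 CPM for Impdh1, and 74.3 and 140.2 CPM for Arhgap9. In plasma cells they were 53.1 and 36.5 CPM for Ssb, 284.6 and 236.95 CPM for Arid3a, 200.7 and 170.2 CPM for Impdh1, and 54.6 and 45.7 CPM for Arhgap9. The genotypes were not tested within a population. Ptpn6, named above, fell further in transgenic mice, -3.19 ± 0.10 in transgenic mice and -2.04 ± 0.09 in controls (difference -1.14 ± 0.14, adjusted p = 4.26e-11), and Ly6a rose by less, 1.33 ± 0.10 in transgenic mice and 2.45 ± 0.10 in controls (adjusted p = 3.60e-09). Of the 10 genes chosen by the size of the difference, DESeq2 gave an adjusted p for 6 only and called 4 of these. It did not call Arid3a (DESeq2, adjusted p = 0.0657) and Rgcc (DESeq2, adjusted p = 0.0503). Without the filter Impdh1 (edgeR, adjusted p = 0.0702) and Arhgap9 (edgeR, adjusted p = 0.101) were not called. In mice 1 to 8 alone only Prg2 and Serpina3g were called, and in mice 9 to 16 alone Ssb, Arid3a, Impdh1 and Pkib were not.

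**Figure D5:**
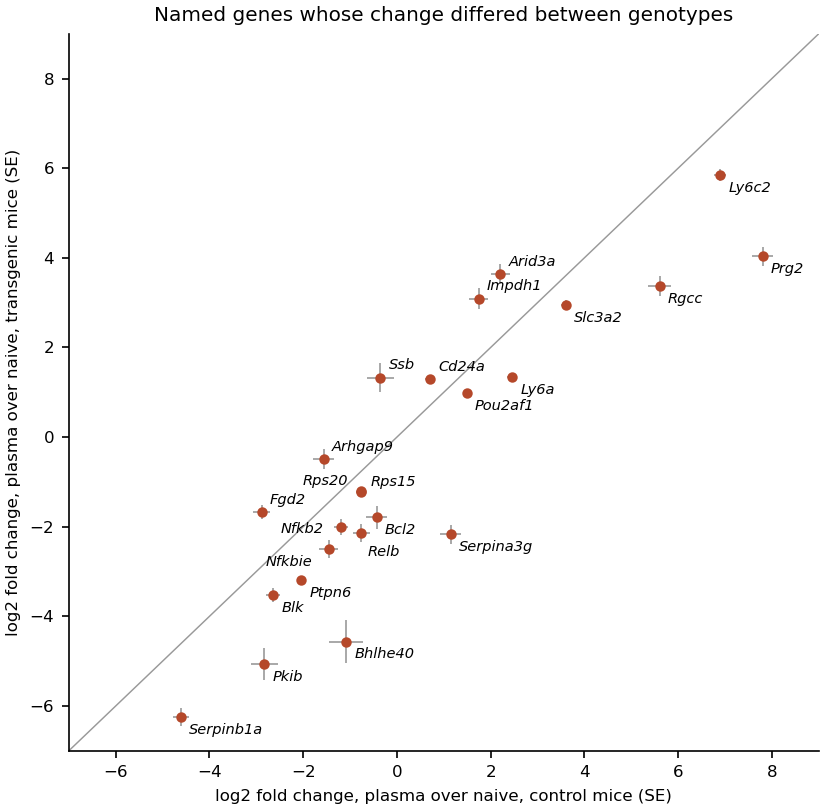
Log2 fold change, plasma over naive, in control mice (horizontal) and transgenic mice (vertical) for the named genes whose change differed between genotypes; error bars are SE and the grey line marks equal change. Serpina3g lies at 1.15 in controls and -2.17 in transgenic mice, and most of the genes lie below the line.

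The isotypes of plasma cells in controls are given as values, and their difference from transgenic mice was not tested. Ighm took 42.3 ± 9.8% of heavy chain constant UMIs there and 14.1 ± 4.25% in transgenic mice (SD, n = 8 each), Ighg1 5.49 ± 4.04% and 15.7 ± 5.62%.

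Against GC B cells of the same transgenic mice, 2129 of 6113 tested genes (34.8%) were higher in plasma cells and 2331 (38.1%) lower. This comparison shares the plasma cell libraries with the one above, so the values stand side by side. Counts here are over members that passed the filter in any of the 3 populations, and counts over members above its level in both compared populations are not given. The filter favoured a difference for a member that passed through 1 population alone, so these counts do not show the direction of a list. On the ER lists the higher genes were 15 of 15 unfolded protein response genes, 23 of 23 chaperones and 32 of 32 translocon genes; Xbp1 stood 4.86 above GC B cells and 3.94 above naive B cells on the log2 scale. Of 41 cell cycle genes tested against GC B cells 38 were lower and 2 higher, where 19 had passed the filter against naive B cells. Mki67 was -1.20 against GC B cells and 3.61 against naive B cells. Of 42 ribosomal proteins 34 were lower and 3 higher against GC B cells. Respiratory genes were 10 higher and 8 lower of 31 against GC B cells, with a median of 0.05. Bcl2 was 3.53 against GC B cells and -1.83 against naive B cells. Of 14 class II genes 12 were lower and 1 higher against GC B cells, with H2-Aa at -2.32 there and -4.06 against naive B cells.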

How the data were processed

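Bulk SCRB-seq libraries of 3 spleen B lineage populations from 16 mice were deposited by the authors as 1 table of raw UMI counts per gene, and the submitters' processing notes name STAR as aligner and GRCm38.p5 as build; the sources used here give no aligner version, annotation or UMI collapsing. Of 20007 genes 19701 were named through GENCODE M21; the 306 others held 0.424% of UMIs. Groups and mouse numbers came from the labels. One allele shared by all mice and results for 2 genes are not reported here.

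Counts were tested with edgeR 4.0.16 (R 4.3.3, limma 3.58.1), quasi-likelihood, with mouse as a block, library totals and TMM factors from UMIs outside 226 immunoglobulin genes, filterByExpr (minimum count 10, which kept genes above 47.8 CPM in 8 libraries) and Benjamini-Hochberg adjustment at 0.05. The genotype comparison used 32 libraries and the GC comparison 24. Library measures and isotype shares were tested by exact paired sign flips (256, numpy 2.4.6). The scripts were tested on simulated data with 200 changed genes. Alternatives were no block, 2 scalings with immunoglobulin UMIs in the totals, DESeq2 1.42.0, no filter, thinned UMIs, all 48 libraries, 4 mice at a time and each mouse left out.

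The populations of a mouse are paired because the labels give both the same number, read here as 1 animal. The deviations of paired libraries from their group means correlated at 0.0124 to 0.0559. The partner of the same number was the best match for mouse 7 only, so the counts themselves do not show the pairing. Mice are separate animals, and libraries of a population did not repeat each other (0 identical pairs). The members and lists were chosen with earlier results of these data known. Named genes were Rel, the 10 called genes per direction with the largest fold change at a mean of at least 100 CPM, up to 5 called members per list and direction at 20 CPM or more, 17 fixed genes and 5 genes per direction for the genotype difference; genes named by promoter match or as single exceptions are marked as such. Lists were tested only gene by gene. Promoter sequences are from RefSeq (GRCm38.p6), and 2791 of 3738 tested genes matched. Age, sex and transgene driver were not in the labels used.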

Additional observations from a re-analysis of the deposited data

Results flagged for a closer look

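Single mice stood apart from the other 7 in the change from naive B cells to plasma cells for 16 of 188 genes looked at, judged by the gap to the nearest mouse over the whole range (above Dixon's critical value for 8 mice); chance alone marks about 1 in 20. Changes here are log2(CPM + 1), plasma minus naive. Mouse 6 was low for Oosp1 (4.624), Nfkb2 (-2.955) and Bcl2 (-3.676). Mouse 13 was high for Ell2 (7.744), Ube2c (7.337) and Fam43a (-5.682). Mouse 8 was high for Creb3l2 (8.132) and Impdh1 (4.66), and mouse 5 for Nars (6.452) and Sdc1 (9.891), where the other mice ran from 4.05 to 5.543 for Sdc1. Mouse 7 was high for Nop56 (-0.4808) and Ssb (5.837) and low for Dusp2 (-7.941). Mouse 14 was high for Rpl12 (-1.182), mouse 16 high for Dnajb1 (0.1156) and low for Serpina3g (-4.171). For 7 of the 16 (Creb3l2, Ell2, Nars, Ube2c, Sdc1 and Ssb in naive B cells, Dusp2 in plasma cells) the mouse that stood apart had 0 UMIs in 1 library where the others had 1 to 7, and for 2 (Oosp1 in naive B cells, Fam43a in plasma cells) it had 1 UMI where the others had 0. The size of these changes is set by the 1 added to the CPM.

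In 2 libraries markers of other cells stood apart. The plasma cells of mouse 15 had 373.3 CPM of neutrophil markers, where the other 7 had at most 2.856, and the naive B cells of mouse 6 had 343.8 CPM of erythroid and platelet markers, where the others had at most 114.2. Their part in the results was not tested.

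For 24 named genes the plasma against naive change differed between genotypes by the interaction test (transgenic minus control, log2). Lower in transgenic mice were the changes of Prg2 (-3.77), Bhlhe40 (-3.48), Serpina3g (-3.32), Pkib (-2.24), Rgcc (-2.24), Serpinb1a (-1.64), Relb (-1.38), Bcl2 (-1.35), Ptpn6 (-1.14), Ly6a (-1.12), Ly6c2 (-1.05), Nfkbie (-1.04), Blk (-0.88), Nfkb2 (-0.82), Slc3a2 (-0.66), Pou2af1 (-0.50), Rps15 (-0.46) and Rps20 (-0.45). Higher were those of Ssb (1.68), Arid3a (1.43), Impdh1 (1.35), Fgd2 (1.21), Arhgap9 (1.07) and Cd24a (0.60). Of the 10 of these chosen by the size of the difference, 2 passed in mice 1 to 8 alone and 6 in mice 9 to 16 alone.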

How the results depend on the processing

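Immunoglobulin UMIs in the totals without a TMM factor changed most: 468 genes were then called higher and 2994 lower, and the direction turned for Pou2af1 (-0.21), Blnk (-0.75), Cflar (-0.35), Mcl1 (-0.66), Tnfrsf13b (-0.55), Pkm (-0.45), Tpi1 (-0.51), Rpl41 (-0.65), Bop1 (-0.68), Psma4 (-0.16), Gbp4 (-0.54), Jun (-0.36) and Jund (-0.60) on the log2 scale. This is the scale shift given above; 13.5% of calls were higher, against 51.6%. Of 180 named genes 151 kept direction and call. With TMM on the same totals 1393 were higher and 1351 lower.

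DESeq2 called 1229 genes higher and 1132 lower of the same 3738. Without a filter 2722 genes were higher than in naive B cells, and 3444 than in GC B cells; with all 48 libraries 2096; with UMIs thinned to 101584 per library 770 higher and 749 lower of 2043 tested. The median of all genes moved by 0.168 without a filter, where 60.7% of calls were higher. For the genotype difference, calls without a filter were 11 upward and 70 downward of 18252 tested; DESeq2 called 8 genes upward and 40 downward, mice 1 to 8 alone 2 and 25, and mice 9 to 16 alone 6 and 39; the cause was not tested. Aldoa, Arhgap9, Cdkn1b and Ccnd3 lost their calls with DESeq2 and without a filter. Leaving out 1 mouse gave 1251 to 1330 higher and 1210 to 1261 lower; Bop1 lost its call without mouse 6, Ccnd3 without 5, 8 or 13, Jun without 16 and Arhgap9 without 5, 7, 13 or 16.

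Without the replicate block 1343 genes were higher and 1260 lower (1330 and 1252 of them shared), 13 and 84 for the genotype difference, and 2125 and 2322 against GC B cells; among named genes Jun alone lost its call. With Jchain among immunoglobulin genes their plasma cell share was 53.7%. As a share of all UMIs, Ighm was 4.74 and Ighg3 0.804 percentage points higher in plasma cells, the reverse of their shares among heavy chains. The naive B cell libraries, with fewer UMIs, limit the genes that could be tested.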
